A study of Mus musculus with 6 samples.

Results

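The genes described here are transcription factors known for building or tuning macrophages, taken from a list of 40 named genes and read across 3 subsets of dermal macrophages that differ in the level of the chemokine receptor CX3CR1. A value was available for 37 of the 40, among 22180 genes with a value, and all 37 passed the filter on dim signals that left 15529 genes for testing. Runx2, Irf5 and Zeb2 were not analysed here, because no probe set with a single symbol stood for them, and those of Irf5 (1) and Zeb2 (2) carried several symbols.

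Macrophages owe their identity to a layered set of DNA-binding proteins. The ETS factor PU.1 (Spi1) and the C/EBP and RUNX proteins open the myeloid enhancers, and factors induced by the tissue, such as nuclear receptors for lipids, Maf proteins, Kruppel-like factors and interferon regulatory factors, then act on those enhancers to set the state of the resident cell. Other members, such as the Id proteins and the bHLH repressors Bhlhe40 and Bhlhe41, adjust survival, proliferation and cytokine output. In skin, macrophages of the dermis renew partly from blood monocytes, so the same factors also mark the step from monocyte to resident cell.

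All cells came from the digested ear skin of 2-week-old C57Bl/6 mice that carried a gfp reporter on 1 copy of the Cx3cr1 gene (Cx3cr1+/gfp), so that all 3 groups had 1 working copy of Cx3cr1. Macrophages were sorted by flow cytometry into CX3CR1low, CX3CR1int and CX3CR1high cells, with 2 samples per subset and 6 in all. Each sample pooled 4 mice, and the replicates came from 2 independent litters. There is no treatment and no separate control group, so that the comparisons are those between the subsets.

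Expression was measured on an Affymetrix array after amplification of the RNA, and every value below is a log2 signal of a probe set, so that 1 unit is a 2-fold difference. Signals of different probe sets were not compared with each other. The Cx3cr1 signal followed the gates for CX3CR1high cells, at 10.55 and 9.51, against 5.87 and 7.01 in CX3CR1low and 7.05 and 6.84 in CX3CR1int cells, whose signals overlapped. All 14 macrophage markers examined, among them Adgre1, Csf1r, Mertk and C1qa, were above the dim level, with a mean log2 signal between 10.49 and 10.71 in the 6 samples. The median signal of the arrays lay between 4.84 and 4.94. In all 3 subsets replicate 1 and replicate 2 differed in sex composition, with Xist at 7.39 to 7.97 in replicates 1 and at 10.99 to 11.39 in replicates 2. The number of arrays limits the precision, with a median standard error (SE) of 0.19 for a difference of a member between 2 subsets. An exact permutation test of 2 samples against 2 cannot go below p = 0.333, so that the tests below are those of limma, fitted across all genes.

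Between CX3CR1high and CX3CR1low cells, 6 factors differed with an unadjusted p below 0.05. Bhlhe40, Runx3 and Mitf had higher signals in both CX3CR1high samples than in any other sample, and Klf4, Irf4 and Etv1 had lower ones. For these 6 genes the difference between CX3CR1high and CX3CR1low cells was 1.4-fold to 1.82-fold. For Klf4 and Irf4 the larger estimated step lay between CX3CR1low and CX3CR1int cells. None of the 37 factors passed the test, an adjusted p below 0.05, in any comparison, so that these differences are given as values and not as calls. The smallest adjusted p of a member was 0.113 for Klf4 between CX3CR1high and CX3CR1low cells, 0.101 for Bhlhe40 between CX3CR1high and CX3CR1int cells, and 0.919 for Klf4 between CX3CR1int and CX3CR1low cells.

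Set against all genes, the counts of members were as follows. Between CX3CR1high and CX3CR1low cells 0 of 37 members were called, where 0.399% of all genes tested were. At an unadjusted p below 0.05 there were 6 members (16.2%), 3 higher and 3 lower, beside 9.65% of all genes, and the groups did not overlap for 16 members (43.2%), 9 higher and 7 lower, beside 38.3% of all genes. Differences past 1.5-fold were seen for 5 members (13.5%) and for 6.01% of all genes, and no member was past 2-fold. The median member differed by 0.08, with 20 positive and 17 negative differences, where the median gene differed by 0.01. The list thus had no common direction in these samples, and its few larger differences ran both ways.

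Between CX3CR1high and CX3CR1int cells 0 members were called, where 0.142% of all genes were, 4 members (10.8%) had an unadjusted p below 0.05, beside 7.89% of all genes, and 17 (45.9%) did not overlap, beside 36.8%. There, 5 members (13.5%) were past 1.5-fold, beside 4.75% of all genes, and Bhlhe40 was the 1 member past 2-fold. Between CX3CR1int and CX3CR1low cells 0 members were called, where 0.00644% of all genes were, 3 members (8.11%) had an unadjusted p below 0.05, beside 4.89%, and 9 (24.3%) did not overlap, beside 31.4%. Only Id3 was past 1.5-fold in that comparison, and the median member differed by 0.00. When CX3CR1int cells were set against the mean of the other subsets, 0 members and 0% of all genes were called. At an unadjusted p below 0.05 there were 2 members (5.41%) in that contrast, beside 5.47% of all genes, Bhlhe40 with a difference of -0.62 (adjusted p = 0.71) and Id3 with -0.67 (adjusted p = 0.9). The comparisons share samples and are not independent of each other. For most members the data bound the difference more closely than they name it: the 95% confidence interval stayed within 2-fold in either direction for 30, 29 and 34 of the 37 members in the 3 pairwise comparisons, taken in the order above.

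**Figure D1:**
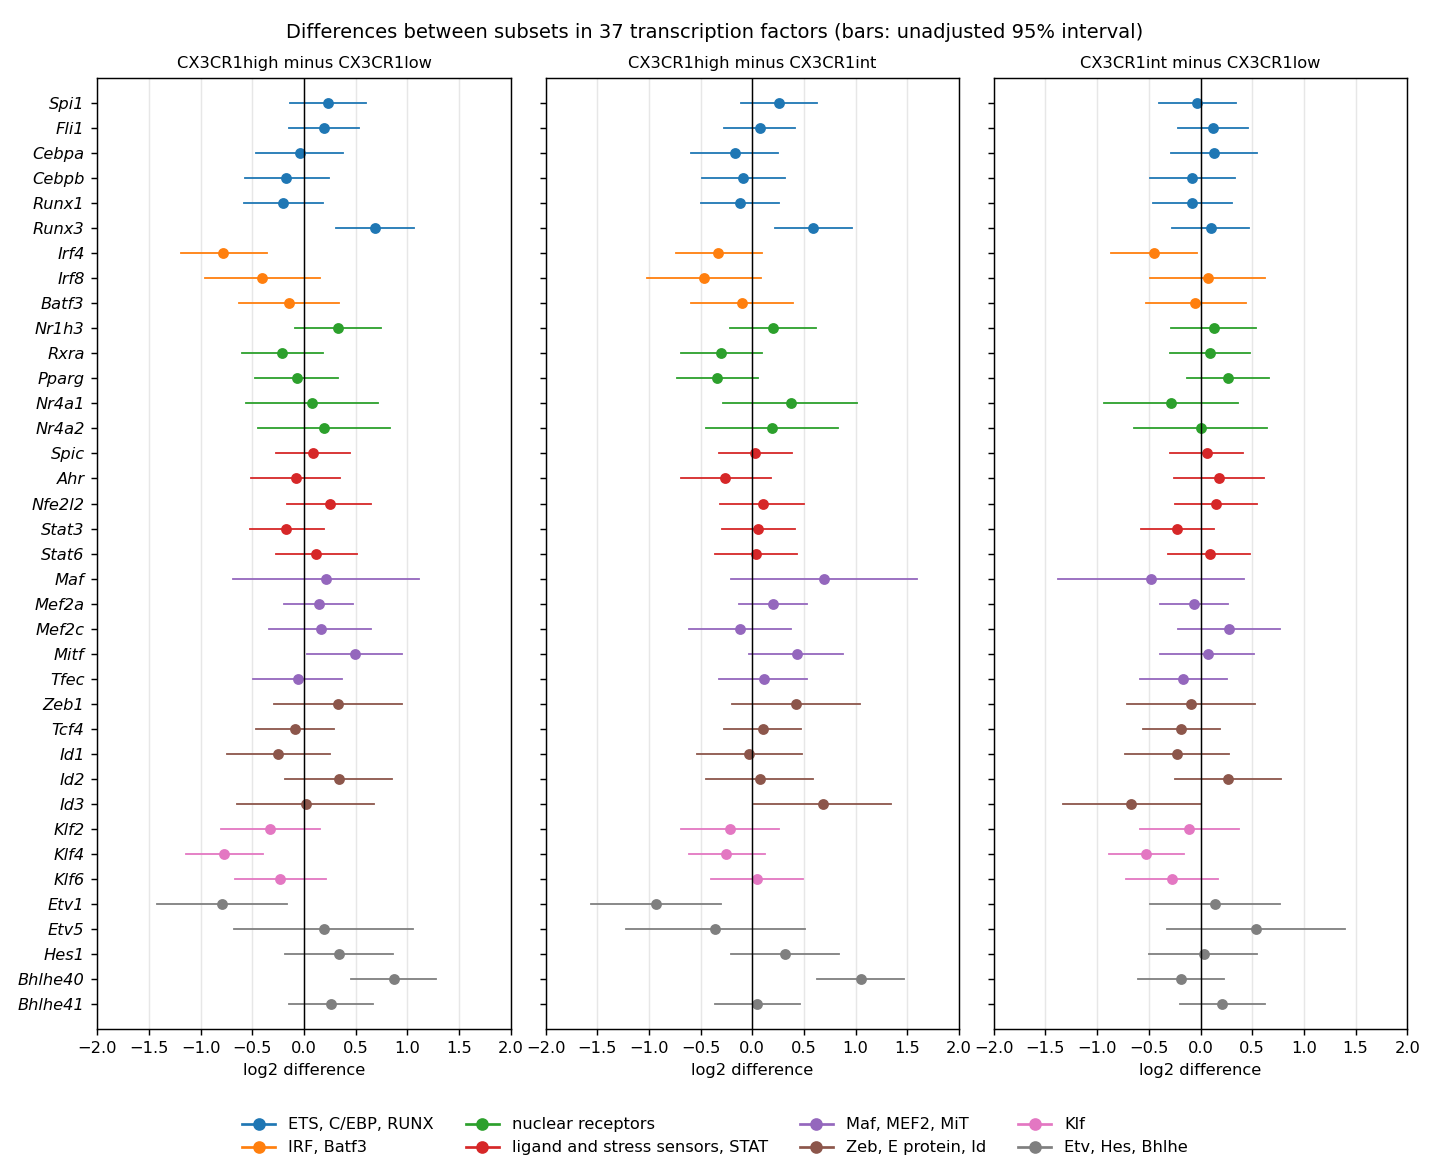
Log2 differences (x axis) of the 37 factors (y axis, coloured by role) for the 3 pairs of subsets, with points for the estimate and bars for its unadjusted 95% confidence interval from limma. Klf4 at -0.77, Irf4 at -0.78 and Etv1 at -0.79 lie lowest and Bhlhe40 at 0.87 highest between CX3CR1high and CX3CR1low cells, while the estimates between CX3CR1int and CX3CR1low cells lie mostly near 0.

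Across the 3 subsets, 3 members (8.11%) kept a stepwise order in which no samples of neighbouring subsets overlapped, beside 3.4% of all genes. Runx3 had that order upwards with CX3CR1, and Irf4 and Klf4 had it downwards. In a wider group of 12 members (32.4%) both CX3CR1high samples lay outside the range of the other 4, beside 18.3% of all genes. Spi1, Runx3, Mef2a, Mitf and Bhlhe40 lay above, and Runx1, Irf4, Irf8, Rxra, Klf2, Klf4 and Etv1 lay below. In such bulk samples, fewer cells that express a gene and less RNA of it per cell cannot be told apart.

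The DNA just upstream of the 3 stepwise genes is shown because it is the sequence through which factors of this same list would act on them. The windows are the 250 bases before the annotated start, 5′ to 3′ on the strand of the gene, from RefSeq on the mouse build GRCm38.p6, and 31 of the 40 listed genes had such a window. Capitals mark matches, on either strand, to short motifs searched by their letters: TGTGGT, the core of the RUNX site, GAGGAA, the core of the Spi1 site, CACGTG, an E-box of basic helix-loop-helix factors such as Bhlhe40 and Mitf, CACACCC, the CACCC box of Kruppel-like factors, and TGACTCA, the AP-1 site. None of the matches overlaps another.
Runx3, start 1, chr4:135120395-135120644, + strand: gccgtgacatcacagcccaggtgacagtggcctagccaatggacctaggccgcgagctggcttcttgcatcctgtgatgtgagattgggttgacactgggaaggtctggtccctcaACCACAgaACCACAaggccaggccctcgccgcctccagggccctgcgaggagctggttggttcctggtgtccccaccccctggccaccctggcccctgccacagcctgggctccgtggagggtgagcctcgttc
Runx3, start 2, chr4:135152295-135152544, + strand: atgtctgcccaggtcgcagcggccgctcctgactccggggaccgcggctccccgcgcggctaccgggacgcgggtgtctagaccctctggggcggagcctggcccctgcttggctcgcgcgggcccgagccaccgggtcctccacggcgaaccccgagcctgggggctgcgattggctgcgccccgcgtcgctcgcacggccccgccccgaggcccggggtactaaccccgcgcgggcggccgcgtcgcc
Irf4, chr13:30748983-30749232, + strand: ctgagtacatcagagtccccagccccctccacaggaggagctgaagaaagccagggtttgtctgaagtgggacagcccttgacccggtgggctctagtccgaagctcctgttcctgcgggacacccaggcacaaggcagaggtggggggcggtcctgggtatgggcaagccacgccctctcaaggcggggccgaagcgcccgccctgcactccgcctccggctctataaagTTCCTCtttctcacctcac
Klf4, chr4:55532476-55532725, - strand: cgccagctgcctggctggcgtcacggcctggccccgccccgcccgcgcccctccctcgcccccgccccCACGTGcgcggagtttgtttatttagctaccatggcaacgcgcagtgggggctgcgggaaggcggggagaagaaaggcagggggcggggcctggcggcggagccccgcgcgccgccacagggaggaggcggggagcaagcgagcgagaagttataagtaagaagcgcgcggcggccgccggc
In the window of the first Runx3 start, the RUNX core occurs on the opposite strand at positions -134 to -129 and again at -126 to -121, counted back from the start. The window of the other Runx3 start, which is 78.8% G and C, holds none of the 5 motifs. The Irf4 window holds the Spi1 core on the opposite strand at -19 to -14, and the Klf4 window, 74.0% G and C, holds the E-box at -182 to -177. Among 32851 windows in the annotation, 14.0% hold TGTGGT, 23.3% GAGGAA, 6.0% CACGTG, 6.9% CACACCC and 4.5% TGACTCA, and the median window is 52.4% G and C. These are matches of letters and not sites of binding, and no binding was measured.

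Klf4, a Kruppel-like factor that in macrophages takes part in monocyte differentiation and in the response to interleukin 4, had the difference with the smallest p between CX3CR1high and CX3CR1low cells. Its signal (probe set 17425401) was 10.29 and 10.11 in the CX3CR1low samples, 9.60 and 9.75 in the CX3CR1int samples, and 9.57 and 9.29 in the CX3CR1high samples. Both CX3CR1low samples were the highest and the CX3CR1high samples the lowest, with no overlap. The difference between CX3CR1high and CX3CR1low cells was -0.77 ± 0.16 (SE), which is 1.71-fold, with a 95% interval from -1.14 to -0.40 and an adjusted p of 0.113. Between CX3CR1int and CX3CR1low cells the difference was -0.53 ± 0.16 (adjusted p = 0.919), and between CX3CR1high and CX3CR1int cells -0.25 ± 0.16 (adjusted p = 0.77). By these estimates the larger step lay between CX3CR1low cells and the rest, though the steps were not tested against each other. Of the other Kruppel-like members, Klf2, known for restraining inflammatory gene expression in myeloid cells, was at 6.84 and 7.27, 6.78 and 7.11, and 6.70 and 6.76 in CX3CR1low, CX3CR1int and CX3CR1high samples. The CX3CR1high samples were the lowest, with a difference of -0.33 ± 0.21 against CX3CR1low cells. Klf6, a broadly expressed relative, lay between 9.49 and 10.16, and its groups overlapped.

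Irf4, an interferon regulatory factor that takes part in the programs of interleukin-4-activated macrophages and of dermal dendritic cells, showed the same order as Klf4. Its signal (probe set 17286295) was 7.90 and 7.64 in the CX3CR1low samples, 7.21 and 7.43 in the CX3CR1int samples, and 7.00 and 6.99 in the CX3CR1high samples, without overlap. The difference between CX3CR1high and CX3CR1low cells was -0.78 ± 0.18, or 1.71-fold, with an interval from -1.19 to -0.36 (adjusted p = 0.179). Irf8, which commits progenitors to the monocyte and dendritic cell fates, was at 9.36 and 8.89 in the CX3CR1low samples, 9.52 and 8.86 in the CX3CR1int samples, and 8.72 and 8.72 in the CX3CR1high samples. The CX3CR1high samples were again the lowest, with a difference of -0.41 ± 0.24 against CX3CR1low cells (adjusted p = 0.665), and the spread within the other subsets was as large as that distance. A second, dimmer probe set of Irf8 gave -0.17 for the same comparison. Batf3, a bZIP partner of these factors needed for cross-presenting dendritic cells, lay between 6.14 and 6.67 with overlapping groups.

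Among the lineage factors, only Runx3 differed by more than a small amount. Runx3, a RUNX protein known from cytotoxic T cells, innate lymphoid cells and Langerhans cells, varied little within a subset (probe set 17419840), with 5.18 and 5.26 in the CX3CR1low samples, 5.34 and 5.29 in the CX3CR1int samples, and 5.94 and 5.87 in the CX3CR1high samples. The CX3CR1high samples stood above all others, and the other subsets were only 0.10 apart. The difference was 0.69 ± 0.16 against CX3CR1low cells, or 1.61-fold (interval 0.31 to 1.06, adjusted p = 0.18), and 0.59 ± 0.16 against CX3CR1int cells (adjusted p = 0.378). Its relative Runx1, a founder of the blood lineages, went the other way, with a difference of -0.20 ± 0.17 between CX3CR1high and CX3CR1low cells and all 6 samples between 8.23 and 8.55. Spi1, the master factor of the myeloid lineage, was at 9.18 and 8.98, 9.02 and 9.08, and 9.41 and 9.21 in CX3CR1low, CX3CR1int and CX3CR1high samples. The difference of 0.23 ± 0.16 between CX3CR1high and CX3CR1low cells was small beside that of Runx3, and its interval, -0.14 to 0.60, includes 0. Fli1, another ETS factor, and Cebpa and Cebpb, which drive myeloid maturation and inflammatory genes, differed by 0.19, -0.04 and -0.17 in the same comparison. The range of each of these 3 over all samples was at most 0.43.

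Bhlhe40, a bHLH repressor that sustains the proliferation of tissue macrophages and limits Il10 in several immune cells, had the largest difference of all members. Its signal (probe set 17461414) was 7.32 and 7.57 in the CX3CR1low samples, 7.39 and 7.13 in the CX3CR1int samples, and 8.30 and 8.32 in the CX3CR1high samples. The CX3CR1high samples lay far above the other 4, which overlapped. The difference was 1.05 ± 0.18 against CX3CR1int cells, or 2.07-fold (interval 0.63 to 1.47, adjusted p = 0.101), and 0.87 ± 0.18 against CX3CR1low cells, or 1.82-fold (interval 0.45 to 1.28, adjusted p = 0.124). Bhlhe41, its close relative with overlapping functions, was higher by 0.26 ± 0.18 against CX3CR1low cells, with all samples between 7.12 and 7.59. Hes1, the bHLH repressor downstream of Notch, was at 5.88 and 5.64, 6.09 and 5.48, and 6.02 and 6.18 in CX3CR1low, CX3CR1int and CX3CR1high samples. The CX3CR1high values were above those of CX3CR1low cells, by 0.34 ± 0.23, and overlapped those of CX3CR1int cells.

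Etv1 and Etv5, ETS factors that respond to receptor tyrosine kinase signalling, were less even between replicates. Etv1 (probe set 17289547) was at 6.96 and 6.82 in the CX3CR1low samples, 7.35 and 6.71 in the CX3CR1int samples, and 5.77 and 6.43 in the CX3CR1high samples. The CX3CR1high samples were both the lowest, but they were also 0.66 apart. The difference was -0.79 ± 0.28 against CX3CR1low (adjusted p = 0.388) and -0.93 ± 0.28 against CX3CR1int cells (adjusted p = 0.41). Without CX3CR1high replicate 1 these values were -0.46 and -0.60, and the dimmer probe set of Etv1 gave -0.30 and -0.32. Etv5 lay between 8.31 and 8.82 in 5 samples and at 9.78 in CX3CR1int replicate 1. Its dimmer probe set gave a difference of 0.05 between CX3CR1int and CX3CR1low cells, where the brighter one gave 0.54 ± 0.38.

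**Figure D2:**
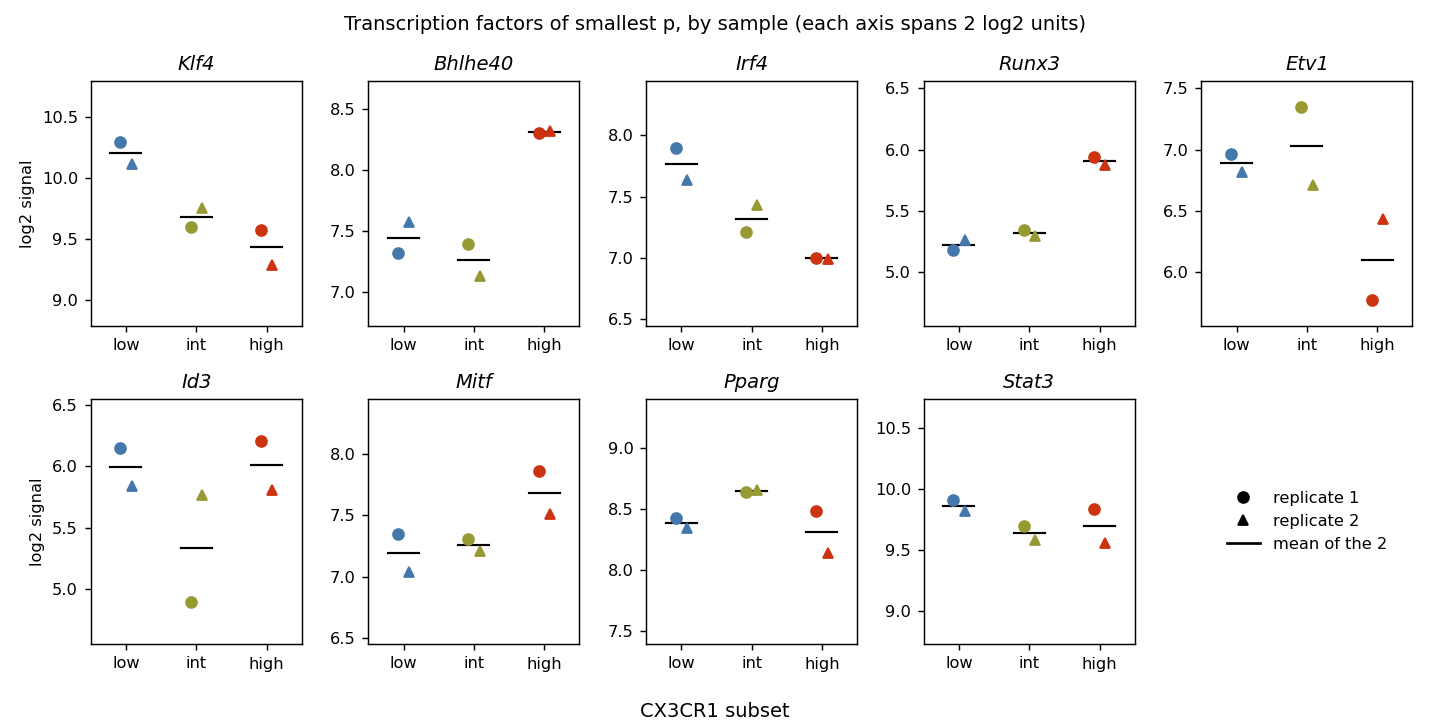
Log2 signal (y axis, each panel spanning 2 log2 units) of the 9 factors of smallest p in the samples of the CX3CR1low, CX3CR1int and CX3CR1high subsets (x axis), with circles for replicate 1, triangles for replicate 2 and a line for their mean. Bhlhe40 at 8.30 and 8.32 and Runx3 at 5.94 and 5.87 stand above all other samples in CX3CR1high cells, Klf4 and Irf4 step down from CX3CR1low to CX3CR1high, and Id3 is lowest in CX3CR1int replicate 1, at 4.89.

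The nuclear receptors, which sense lipids or act as immediate early genes, showed no difference past 1.5-fold. Nr1h3, the oxysterol receptor LXR alpha, was at 5.38 and 5.48 in the CX3CR1low samples, 5.38 and 5.73 in the CX3CR1int samples, and 5.73 and 5.78 in the CX3CR1high samples, a difference of 0.33 ± 0.18 between the outer subsets (adjusted p = 0.642). Its partner Rxra was lowest in CX3CR1high samples, at 6.56 and 6.50 against 6.73 to 6.90 elsewhere. Pparg, the fatty acid receptor that shapes alveolar macrophages, was at 8.42 and 8.34, 8.64 and 8.65, and 8.48 and 8.14 (probe set 17461942). Both CX3CR1int samples were the highest, by 0.27 ± 0.18 against CX3CR1low cells (adjusted p = 0.996). The difference of CX3CR1high from CX3CR1int cells was -0.34 ± 0.18 (adjusted p = 0.695), and neither passed the test. Nr4a1, needed for patrolling monocytes, and Nr4a2 differed between CX3CR1high and CX3CR1low cells by 0.08 ± 0.28 and 0.19 ± 0.28. For both, the samples differed more by replicate number than by subset, as described further on.

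The sensors of heme, xenobiotics, oxidative stress and cytokines varied little over the samples. Spic, the heme-induced factor of iron-recycling macrophages, stayed between 9.80 and 10.07 over all samples, and Stat6, which carries the interleukin 4 and 13 signal, between 8.44 and 8.70. Ahr, the receptor for aryl hydrocarbons, lay between 8.75 and 9.27, and Nfe2l2, the regulator of the antioxidant response, between 10.80 and 11.38. Stat3, which carries the interleukin 6 and 10 signal, was at 9.91 and 9.82 in the CX3CR1low samples, 9.70 and 9.58 in the CX3CR1int samples, and 9.84 and 9.56 in the CX3CR1high samples (probe set 17269717). Its difference of -0.23 ± 0.16 between CX3CR1int and CX3CR1low cells, which did not overlap, had an adjusted p of 0.996. For Spic, Stat3 and Stat6 the 95% intervals of the difference between CX3CR1high and CX3CR1low cells were -0.27 to 0.44, -0.52 to 0.19 and -0.27 to 0.51.

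Of the Maf, Mef2 and MiT factors, Mitf had the largest difference between CX3CR1high and CX3CR1low cells. Mitf, a bHLH zipper factor of melanocytes, mast cells and osteoclasts that also drives lysosomal genes, was at 7.35 and 7.04 in the CX3CR1low samples, 7.31 and 7.21 in the CX3CR1int samples, and 7.86 and 7.51 in the CX3CR1high samples (probe set 17461132). The CX3CR1high samples lay above the rest, by 0.49 ± 0.20 against CX3CR1low (1.4-fold, interval 0.03 to 0.95, adjusted p = 0.486) and 0.43 ± 0.20 against CX3CR1int cells (adjusted p = 0.646). Its macrophage-restricted relative Tfec lay between 8.30 and 8.72 with overlapping groups. Maf, which holds resident macrophages in a differentiated, non-cycling state, was between 10.77 and 11.37 in 5 samples and at 9.80 in CX3CR1int replicate 1. That sample gave the CX3CR1int group an SD of 1.05, and the difference of 0.69 ± 0.40 between CX3CR1high and CX3CR1int cells was -0.01 on the dimmer probe set of Maf. Mef2a, a widely expressed MADS box factor, was at 10.20 and 9.98 in CX3CR1high samples and between 9.82 and 9.96 elsewhere. Mef2c, best known in macrophages from microglia, spanned 0.70 over the samples, with overlapping groups.

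The Id proteins bind bHLH factors and keep them off the DNA, and Id3 marks Kupffer cells among other macrophages. Id3 (probe set 17420016) was at 6.15 and 5.84 in the CX3CR1low samples, 4.89 and 5.77 in the CX3CR1int samples, and 6.21 and 5.81 in the CX3CR1high samples. The lower value of CX3CR1int cells came mainly from replicate 1. The difference was -0.67 ± 0.29 against CX3CR1low (adjusted p = 0.996) and, turned round, 0.68 ± 0.29 for CX3CR1high against CX3CR1int cells (adjusted p = 0.616), and without CX3CR1int replicate 1 these were -0.23 and 0.24. Id1 lay between 5.14 and 5.81. Id2, which is required for innate lymphoid cells and several dendritic cells, lay between 9.34 and 10.14. Their differences between CX3CR1high and CX3CR1low cells were -0.25 ± 0.22 and 0.34 ± 0.23. Tcf4, an E protein of the kind that Id proteins inhibit, lay between 8.35 and 8.60, the narrowest range of any member. Zeb1, a zinc finger repressor, was between 5.21 and 6.00, with the CX3CR1low samples 0.79 apart.

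Several factors differed between the replicates in the same direction in every subset. In replicate 2, 10 members (27%) were lower than in replicate 1 in all 3 subsets, beside 16.5% of all genes, and 5 members (13.5%) were higher in all 3, beside 12% of all genes. The 10 lower ones were Nr4a1, Nr4a2, Rxra, Nfe2l2, Ahr, Stat3, Stat6, Mitf, Id2 and Etv5, and the 5 higher ones were Klf6, Klf2, Id1, Bhlhe41 and Nr1h3. Nr4a1, an immediate early gene, gave differences of -0.43 in CX3CR1low, -0.46 in CX3CR1int and -0.83 in CX3CR1high cells, replicate 2 minus replicate 1. Its mean difference was -0.57 ± 0.13 (adjusted p = 0.243), which exceeds its differences between the subsets. Nr4a2 gave -0.26, -0.62 and -0.74 in the 3 subsets (mean -0.54 ± 0.14, adjusted p = 0.354). Nfe2l2 gave -0.27, -0.31 and -0.40 (mean -0.33 ± 0.09, adjusted p = 0.403). No member was called for replicate number, where 0.0837% of all genes were, and 7 members (18.9%) had an unadjusted p below 0.05, beside 7.78% of all genes, which were Nr4a1, Nr4a2, Nfe2l2, Etv5, Id2, Klf6 and Irf8. The replicates also differed in sex composition, and the part of that in these differences was not tested. Bhlhe40, Runx3 and Irf4 had mean differences of 0.00, -0.01 and -0.02 between the replicates.

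**Figure D3:**
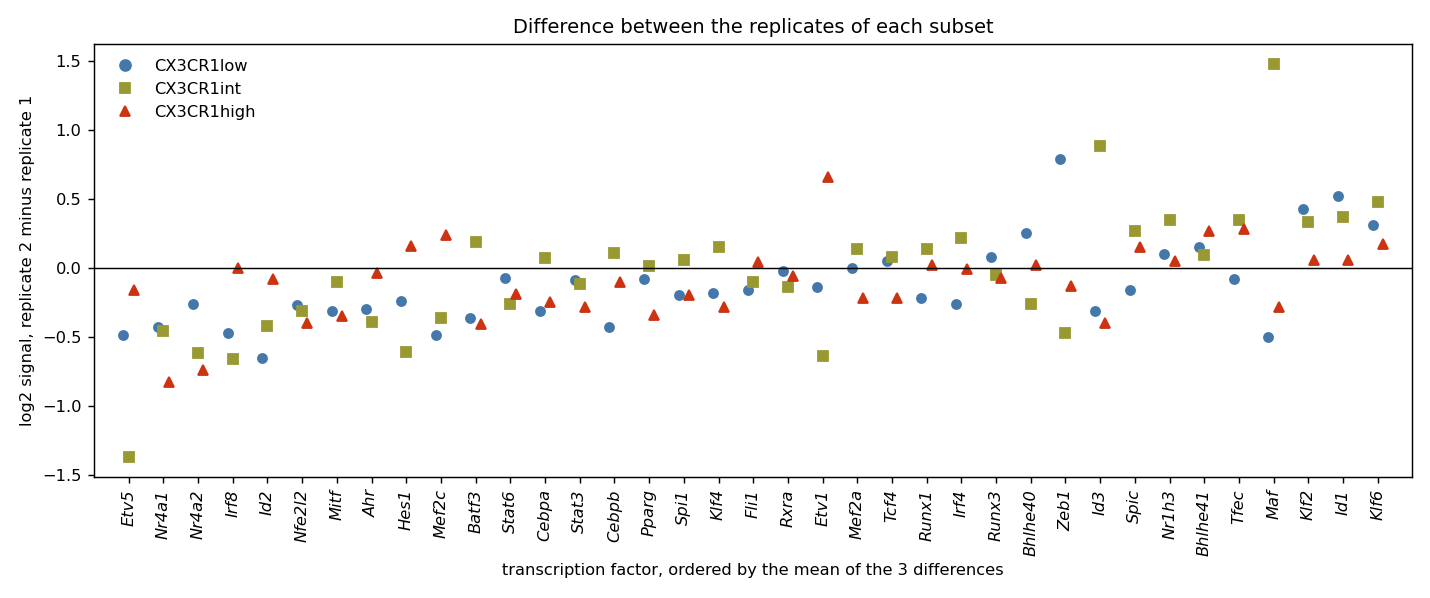
Difference between replicate 2 and replicate 1 (log2 signal, replicate 2 minus replicate 1) of each factor in each of the 3 subsets, as a point per subset, with the factors on the x axis in the order of their mean difference. Nr4a1 and Nr4a2 lie below 0 in all subsets, with Nr4a1 at -0.43, -0.46 and -0.83, and Klf6 lies above 0 in all, while Maf is spread from -0.50 to 1.48.

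Markers of other skin cells were present in the sorted samples and moved with the subsets. The summed linear signal of 18 keratinocyte markers was 2405 to 3702 in CX3CR1low, 1843 to 1914 in CX3CR1int and 1607 to 1724 in CX3CR1high samples, and all 18 were above the dim level. The sum of 14 fibroblast markers, all above it, was 4475 to 7338, 3745 to 3775 and 2751 to 2838 in the same order. Between CX3CR1high and CX3CR1low cells Krt10 was called lower (-1.46 ± 0.23, adjusted p = 0.0439). It was the 1 call among the 18 keratinocyte markers, and no fibroblast marker was called. Klf4 is also a factor of the differentiating epidermis, and its signal had the same order over the subsets as those sums. The 20 stress and immediate early genes had a mean log2 signal of 9.50 to 9.56 in CX3CR1low, 9.32 to 9.35 in CX3CR1int and 9.26 to 9.48 in CX3CR1high samples. Between CX3CR1high and CX3CR1low cells 18 of their 20 differences were negative, like those of Klf4 and Irf4, with a median of -0.16, 0 called lower and Rgs1 called higher (1.36 ± 0.22, adjusted p = 0.0434). Of all genes tested, 0.399% were called in that comparison. Within CX3CR1low cells, replicate 2 had the higher mean log2 signal of the keratinocyte and fibroblast markers (7.48 against 6.85). Its Klf4 signal was the lower one (10.11 against 10.29). For CX3CR1int cells, replicate 2 was higher in both the marker mean (6.69 against 6.53) and Klf4 (9.75 against 9.60). For CX3CR1high cells, it was higher in the marker mean (6.50 against 6.36) and lower in Klf4 (9.29 against 9.57). Each of these sets 1 sample against 1 of another sex composition, and the part of these markers in the Klf4 difference was not tested. The marker mean was also fitted as a covariate. The differences between CX3CR1high and CX3CR1low cells were then -0.98 for Klf4, -0.99 for Irf4, 1.06 for Bhlhe40 and 0.74 for Runx3, again without a call. That of Mitf was 0.06, against 0.49 without the covariate, and Mitf was lower in replicate 2 in every subset. Because the covariate was higher in replicate 2 throughout, fits with it cannot tell these markers apart from replicate number or sex composition. The covariate also stepped down from CX3CR1low to CX3CR1high samples without overlap, so that these fits separate markers and subsets poorly.

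For the factors with known roles in other cells, the marker lists gave these values. Mitf is a melanocyte and mast cell factor. The 10 mast cell markers summed to 592 to 795 in CX3CR1low, 432 to 472 in CX3CR1int and 223 to 236 in CX3CR1high samples, with Tpsab1, Fcer1a and Ms4a2 below the dim level. The 9 melanocyte markers summed to 283 to 330, 241 to 271 and 226 to 253, with Tyr and Oca2 below it. Of the 7 mast cell markers tested, 3 were called lower in CX3CR1high against CX3CR1low cells, beside 0.399% of all genes called. These were Cpa3 (-3.37 ± 0.27, adjusted p = 0.00512), Mcpt4 (-2.26 ± 0.26, adjusted p = 0.0168) and Cma1 (-1.87 ± 0.20, adjusted p = 0.013). Runx3 is a factor of lymphocytes and Langerhans cells, and the 11 markers of T, NK and innate lymphoid cells summed to 1033 to 1265, 1063 to 1209 and 1078 to 1123, with Cd3g, Cd8a and Ncr1 below the dim level. Within that sum Cd4 was lower in CX3CR1high samples (7.07 and 7.62, against 8.13 to 8.66 elsewhere) and Il7r higher (9.20 and 9.33, against 8.08 to 8.97). Of the 8 genes tested, 4 differed upwards and 4 downwards between CX3CR1high and CX3CR1low cells. The 6 Langerhans cell markers summed to 639 to 907, 549 to 633 and 599 to 730, with Cd24a at 8.79 in CX3CR1low replicate 2. Of these 6 markers, 1 differed upwards and 5 downwards between CX3CR1high and CX3CR1low cells, with a median of -0.15. The upward one was their defining marker Cd207, like Runx3 highest in CX3CR1high samples, at 7.57 and 8.07 against 6.00 to 6.85 elsewhere. The difference of Cd207 from CX3CR1low cells was 1.22 ± 0.29 (adjusted p = 0.181). Unlike those of Runx3, its CX3CR1low samples (6.72 and 6.48) lay within the range of the CX3CR1int samples (6.00 and 6.85). Irf4 and Irf8 are dendritic cell factors. The 11 dendritic cell markers, of which Dpp4 was below the dim level, summed to 540 to 702, 653 to 681 and 786 to 993. Their mean log2 signal overlapped between CX3CR1high (5.51 to 5.72) and CX3CR1int samples (5.50 to 5.55). The sum was highest where Irf4 and Irf8 were lowest. Its genes with the largest differences between CX3CR1high and CX3CR1low cells were Ccl22 (1.93) and Ccr7 (1.32). Of the 10 dendritic cell markers tested, 6 differed upwards and 4 downwards in that comparison. The mean log2 signal of 21 cell cycle genes was 6.48 to 6.61, 6.81 to 6.93 and 7.06 to 7.48, so that it was highest in the subset in which Bhlhe40 was highest. It also rose from CX3CR1low to CX3CR1int cells, where Bhlhe40 did not (-0.19 ± 0.18). The part of these cells, of the stress genes and of cycling in the differences of the factors was not tested.

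**Figure D4:**
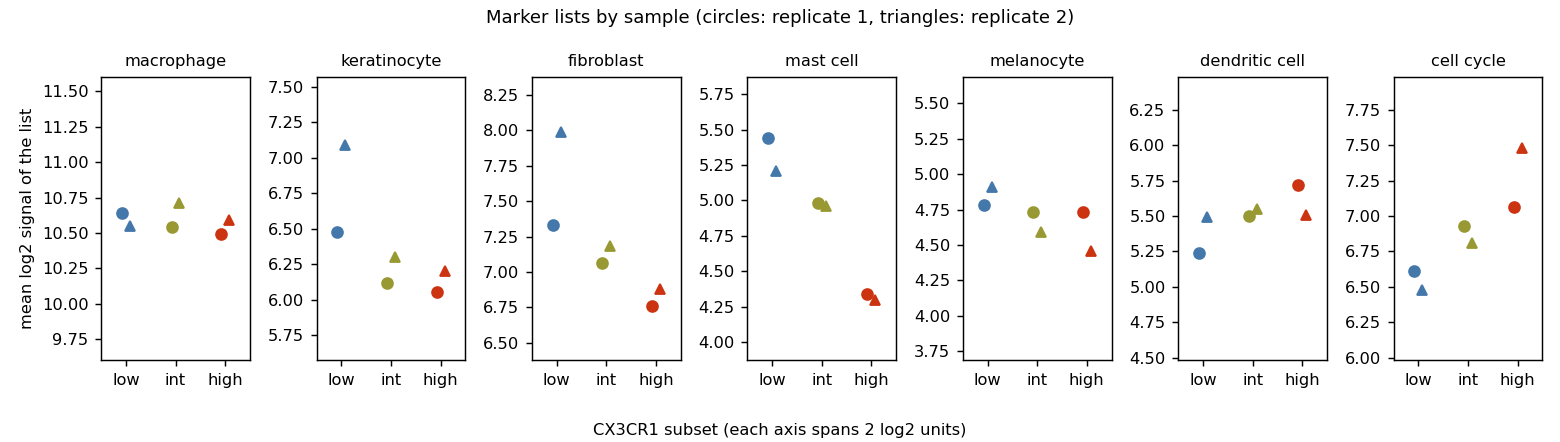
Mean log2 signal (y axis, each panel spanning 2 log2 units) of 7 lists of marker and cell cycle genes in the samples of the 3 subsets (x axis), with circles for replicate 1 and triangles for replicate 2. The keratinocyte list is highest in CX3CR1low samples, at 6.48 and 7.09 against 6.05 to 6.30 elsewhere, the mast cell list steps down and the cell cycle list steps up with CX3CR1, and the macrophage list stays between 10.49 and 10.71.

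Genes that the factors are known to control, and their family relatives, were counted in 14 lists, some of which share genes or hold members. The lists were written with earlier results of these data known. Of all genes tested, 0.399% were called between CX3CR1high and CX3CR1low cells. In the family list, 54 relatives of the members were tested and 1 fell in CX3CR1high against CX3CR1low cells, none rose, and the median difference was -0.10 beside 0.01 for all genes. The gene that fell was Klf9, a glucocorticoid-responsive Kruppel-like factor, at 7.16 and 7.08 in the CX3CR1low samples, 6.86 and 7.06 in the CX3CR1int samples, and 6.01 and 6.02 in the CX3CR1high samples. Its difference was -1.11 ± 0.17 (adjusted p = 0.0428), in the direction of Klf4 and Klf2. Leaving out any of the 6 samples ended the call, with values between -1.15 and -1.07. Each such omission, here and below, also left every gene with fewer degrees of freedom. Without either CX3CR1int sample the value of Klf9 stayed at -1.11. Stat4, a carrier of the interleukin 12 signal, differed by 1.17 ± 0.32 (adjusted p = 0.238) and passed the test in the fit with the replicate block (adjusted p = 0.0285).

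Among 14 targets of Stat6 tested, 1 rose and 2 fell in CX3CR1high against CX3CR1low cells, beside 0.399% of all genes called. Stat6 itself differed by 0.12 ± 0.17. Retnla, a secreted protein of interleukin-4-activated macrophages, was at 11.71 and 11.82 in the CX3CR1low samples, 10.92 and 11.60 in the CX3CR1int samples, and 8.68 and 9.40 in the CX3CR1high samples. Its differences were -2.73 ± 0.27 against CX3CR1low (adjusted p = 0.0103) and -2.22 ± 0.27 against CX3CR1int cells (adjusted p = 0.0405), both called. Clec10a, a lectin of the same state, was at 8.04 and 7.97 in CX3CR1low and at 5.96 and 6.58 in CX3CR1high samples, with a mean of 7.82 in CX3CR1int samples, and fell by 1.74 ± 0.24 against CX3CR1low cells (adjusted p = 0.0317). The chemokine gene Ccl22 was at 5.94 and 6.90, 6.90 and 6.93, and 8.57 and 8.12 in the 3 subsets and rose by 1.93 ± 0.30 (adjusted p = 0.0428). Retnla and Clec10a thus had the direction of Klf4 and Irf4, and Ccl22 had the opposite one. Mgl2, a lectin beside Clec10a in the genome and in function, differed by -0.98 ± 0.17 (adjusted p = 0.0635, with the replicate block 0.0419), and Clec10a differed by -1.55 ± 0.24 against CX3CR1int cells (adjusted p = 0.0732, with the replicate block 0.0261).

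The Retnla call against CX3CR1low cells was lost without CX3CR1low replicate 1 (-2.78), CX3CR1low replicate 2 (-2.67) or CX3CR1high replicate 1 (-2.37). Leaving out any sample ended the call of Clec10a (-2.05 to -1.43) and that of Retnla against CX3CR1int cells (-2.58 to -1.86). The Ccl22 call was lost without any sample except CX3CR1low replicate 2, with values from 1.45 to 2.41 over the 6 omissions. With the mean signal of the keratinocyte and fibroblast markers as a covariate, no call of these lists against CX3CR1low cells held, Cx3cr1 included (4.49). The values were then -2.27 for Retnla, -1.57 for Clec10a, 2.84 for Ccl22, -1.14 for Klf9, and, for the genes of the next lists, 0.72 for Il10 and -1.06 for Pltp. The covariate itself stepped down with CX3CR1. With it 8 of all genes tested were called between CX3CR1high and CX3CR1low cells, against 62 without it. The lost calls therefore do not show what part the markers had, which was not tested. Over all 18 alternatives the calls against CX3CR1low cells were kept in 14 for Retnla, 9 for Clec10a, 7 for Ccl22, 7 for Klf9, 6 for Il10 and 6 for Pltp, and testing without the dim filter and centring each array on its median were among the settings that ended those of Klf9, Ccl22, Il10 and Pltp.

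Il10, an anti-inflammatory cytokine gene counted among the Stat3 targets, was at 10.33 and 9.96 in the CX3CR1low samples, 10.13 and 10.28 in the CX3CR1int samples, and 11.36 and 11.16 in the CX3CR1high samples. It rose by 1.12 ± 0.16 against CX3CR1low cells (adjusted p = 0.037), the 1 call among 10 Stat3 targets tested, beside 0.399% of all genes called, while Stat3 itself differed by -0.17 ± 0.16. Against CX3CR1int cells its difference was 1.06 ± 0.16 (adjusted p = 0.0732, with the replicate block 0.0346). The direction of Il10 was that of Bhlhe40, Runx3 and Mitf. The call was lost without any of the 6 samples, with a lowest value of 0.93 without CX3CR1low replicate 2. The list of Stat3 targets had a median of 0.06 between CX3CR1high and CX3CR1low cells, and of 0.17 between CX3CR1high and CX3CR1int cells.

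Among 15 targets of the LXR proteins, Pltp, a phospholipid transfer protein, fell in CX3CR1high against CX3CR1low cells and none rose, beside 0.399% of all genes called. Pltp was at 11.15 and 10.94 in the CX3CR1low samples, 10.91 and 10.91 in the CX3CR1int samples, and 10.21 and 10.21 in the CX3CR1high samples, a difference of -0.84 ± 0.13 (adjusted p = 0.0412). The call was lost when any sample was left out (-0.94 to -0.73). The median gene of the list differed by -0.23, with 12 of 15 differences negative. Nr1h3, itself a gene of that list, was 1 of the 3 positive ones at 0.33, and Rxra differed by -0.21. Targets of the MiT factors had a median of -0.29, with 12 of 14 negative and none called, beside a Mitf difference of 0.49. Within that list, Ctsk, a cathepsin of osteoclasts, differed by -1.71 ± 0.30 (adjusted p = 0.0634, with the replicate block 0.0367), and Acp5, a phosphatase of the same cells, by 1.06 ± 0.18 (adjusted p = 0.0635, with the replicate block 0.0399). Ctsk is also expressed by fibroblasts, whose markers had the same order over the subsets, and their part in its difference was not tested.

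In the list of monocyte genes linked to Nr4a1 and Klf2, 16 genes were tested. Of all genes tested, 0.142% were called between CX3CR1high and CX3CR1int cells. Besides Cx3cr1, on whose level the cells were sorted, Ly6c2, a surface protein of classical monocytes, was called in CX3CR1high against CX3CR1int cells, with a difference of -3.49 ± 0.45 (adjusted p = 0.0421). It was at 6.48 and 7.11 in the CX3CR1low samples, 7.35 and 7.90 in the CX3CR1int samples, and 3.36 and 4.92 in the CX3CR1high samples. That call was lost without CX3CR1high replicate 1 (-2.71), either CX3CR1int sample (-3.76 and -3.21) or either CX3CR1low sample (-3.49 in both cases). Against CX3CR1low cells Ly6c2 differed by -2.66 ± 0.45 (adjusted p = 0.0586, with the replicate block 0.00484), and Gda, another gene of classical monocytes, by -1.30 ± 0.30 (adjusted p = 0.161, with the replicate block 0.0337). Ccr2, also a monocyte marker, went the other way, by 1.24 ± 0.44 (adjusted p = 0.401). Of the 16 genes, 10 differed upwards and 6 downwards in that comparison, with a median of 0.13. Nr4a1 and Klf2 themselves differed by 0.08 and -0.33 in that comparison.

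No gene was called between CX3CR1high and CX3CR1low cells among 18 Spi1 targets, 14 Nfe2l2 targets, 12 dendritic cell genes linked to Irf8 and Irf4, 11 Pparg targets, 11 heme and Spic genes, 10 Notch genes, 5 Ahr targets, and 17 genes of the BMP and TGF-beta pathways that control the Id genes. Ccr7, the receptor that guides cells to lymph nodes, differed by 1.32 ± 0.22 (adjusted p = 0.051, with the replicate block 0.0239), opposite in sign to Irf4 and Irf8. Slc7a11, the cystine transporter of the antioxidant response, differed by 1.22 ± 0.24 (adjusted p = 0.0989). Cybb and Ncf4, subunits of the phagocyte oxidase under Spi1, differed by 0.64 ± 0.16 and 0.69 ± 0.19 (adjusted p = 0.203 and 0.239), but of the 18 Spi1 targets 8 differences were positive and 10 negative, with a median of -0.07.

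In those lists, 3 more genes passed the test only in the fit with the replicate block. Cd163, the hemoglobin receptor, differed by -0.91 ± 0.17 (adjusted p = 0.0829, with the replicate block 0.0305), and Dtx4, a Notch pathway gene, by 1.09 ± 0.20 (adjusted p = 0.0809, with the replicate block 0.0419). Skil, an inhibitor of SMAD proteins, differed by 1.21 ± 0.35 (adjusted p = 0.267, with the replicate block 0.0303), and by -0.13 with the marker covariate. Between CX3CR1int and CX3CR1low cells no gene of any of these lists was called.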

How the data were processed

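The deposited values were log2 signals per probe set, which the authors had summarised by RMA with version 1.4 of Affymetrix Expression Console (source: the submitters' processing notes). RNA was isolated with a micro-scale kit and amplified before labelling, per the labels' protocols. RMA sets all arrays to a common distribution, so that a shift shared by most genes would not be seen. The version of the genome behind the probe sets was not given in the sources used here.

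Of 34390 probe sets, 23521 carried exactly 1 symbol, 1814 several and 9055 none. The brightest with 1 symbol stood for a gene. A dim filter at the 30th percentile of the mean over samples, a log2 signal of 4.335, kept 15529 genes. Tests used limma 3.58.1 under R 4.3.3 (lmFit, contrasts.fit, eBayes with an intensity trend) over all 6 samples, two-sided, with Benjamini-Hochberg adjustment over all genes tested and a call at an adjusted p below 0.05. A gene's variance rested on 3 residual and 5.77 prior degrees of freedom. The fit was tested on simulated data. There were 0 unused columns of values.

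The replicate number was also fitted as a block, with 2 residual degrees of freedom. Across genes, same-numbered samples of CX3CR1high and CX3CR1low cells deviated together with a correlation of 0.136, those of CX3CR1high and CX3CR1int cells with 0.178 and those of CX3CR1int and CX3CR1low cells with 0.146. The numbers were therefore taken to pair the samples in the block fit, while the reported fit left this pairing out. The labels do not say that a number marks a litter. The p-values measure the spread between pooled samples. The rule for full values was the 5 members of smallest p per comparison, and for each list its called genes, or else the 2 of smallest p, of which the text gives some. The members, lists and tests were chosen with earlier results of these data known. The promoters shown, the comparison of replicate numbers, and the genes singled out as standing apart in a sample were chosen after their values were seen. Other settings tried were dim filters, variance priors, normalizations, probe set rules, a marker covariate and leaving out each sample. Another list of target genes is not reported here.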

Additional observations from a re-analysis of the deposited data

How the results depend on the processing

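In all 18 alternatives 0 of the 37 factors were called in any of the 3 pairwise comparisons. The smallest adjusted p of a member lay between 0.0739 (Klf4, replicate block) and 0.496 between CX3CR1high and CX3CR1low cells, between 0.075 (Bhlhe40, dim filter at the 50th percentile) and 0.562 between CX3CR1high and CX3CR1int cells, and between 0.546 and 0.998 between CX3CR1int and CX3CR1low cells. Over those alternatives the count of all genes called ranged from 0 to 154, 0 to 47 and 0 to 1, where the reported fit called 62, 22 and 1. With the replicate block, 154, 47 and 0 genes were called, and the median differences of the members were 0.08, 0.05 and 0.00, the same as without it. Klf4, Bhlhe40, Irf4, Runx3 and Etv1 kept their sign between CX3CR1high and CX3CR1low cells in all 18. The median difference of the members depended more on the setting. With the covariate of keratinocyte and fibroblast markers it was -0.18 between CX3CR1high and CX3CR1low and -0.15 between CX3CR1int and CX3CR1low cells. With a sample left out it ranged from -0.10 to 0.14 and from -0.06 to 0.10 in these comparisons, and from -0.01 to 0.05 between CX3CR1high and CX3CR1int cells. The lone sample of a subset was then assumed to vary like the others. The 2 samples per subset limit every result, and dim members such as Runx3 and Zeb1 are limited also by their signal over background.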

Other observations

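Of the 37 factors, 5 had a second, dimmer probe set with the same symbol, and the pairs gave unequal differences. Between CX3CR1high and CX3CR1low cells the brighter and the dimmer probe set gave -0.41 and -0.17 for Irf8, 0.21 and 0.08 for Maf, 0.16 and -0.09 for Mef2c, -0.79 and -0.30 for Etv1, and 0.19 and -0.26 for Etv5. In that comparison Etv1, Irf8 and Maf kept their sign and Mef2c and Etv5 did not. Etv1 and Irf8 kept it in the other pairwise comparisons too, but the Irf8 probe sets correlated at -0.09 over the samples. Maf did not. Its probe sets gave 0.69 and -0.01 between CX3CR1high and CX3CR1int cells, and -0.48 and 0.08 between CX3CR1int and CX3CR1low cells.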
